A study of Mus musculus with 768 samples.

Results

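The transcriptional regulators YAP and TAZ, their TEAD partners and genes they are known to control were followed through 7 days of organoid growth in cells from the mouse cochlea. The 10 genes were chosen by symbol, of 52636 genes in the deposited tables: Yap1 (YAP), Wwtr1 (TAZ), Tead1, Tead2, Lats2, Amotl2, Ajuba, Ankrd1, Axl and Cyr61, the former symbol of Ccn1. All 10 were present in the tables and passed the filter on low counts.

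The starting cells were greater epithelial ridge cells of the cochlea, the epithelium on the inner side of the hair cells, taken from mice on postnatal day 2 and enriched by flow cytometry. All mice carried the alleles Fgfr3-CreERT2, Ai14-tdTomato and Sox2-GFP, so the 3 groups share one genotype, and no group lacks them. All cultures received the same medium, DMEM/F12 with N-2, B-27, ampicillin, the growth factors IGF1, EGF and FGF2, valproic acid, 2-phospho-L-ascorbic acid, CHIR99021 (a GSK3 inhibitor) and 616452 (a TGFβ receptor inhibitor). By the labels the groups differ in time alone: Day 1 (192 cells, 3 cultures), Day 3 (255 cells, 3 cultures) and Day 7 (321 cells, 5 cultures). Organoids were trypsinised, cells were picked by hand, and each was made into its own SmartSeq2 library, which copies whole transcripts and tags no single molecule. A culture here is a day with a replicate number in the labels. The labels do not say whether those numbers are separate mice or dishes, so p-values measure only the spread between these samples. No uncultured cells and no untreated medium entered the comparisons.

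In the Hippo pathway, the MST and LATS kinases phosphorylate YAP and TAZ and so keep them out of the nucleus. When the kinases are inactive, YAP and TAZ enter the nucleus, bind TEAD transcription factors at DNA and switch on target genes such as Cyr61, Ctgf (the former symbol of Ccn2), Ankrd1, Amotl2 and Axl. In the developing inner ear, YAP with TEAD is known to promote growth of the sensory epithelium. The pathway acts largely through the YAP protein and its place in the cell, which RNA levels do not measure.

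The DNA letters that TEAD proteins bind are short, and the members' promoters are shown first. Such letters were found for Cyr61 and Amotl2, the members that passed the test between days. They were also found for Ajuba, Ankrd1, Axl, Yap1 and Wwtr1, which did not pass it. The core letters GGAATG were searched on both strands (CATTCC is the same core on the other strand) in the 250 bases before each start in the RefSeq annotation of GRCm38.p6. Of the 9 members with an entry (Tead1 was not matched), 7 held the core, against 12.6% of all 32851 windows and 14.4% of 27025 genes with any window. The members were chosen as YAP and TEAD genes and their known targets, so their share is not an independent test. A match is a description of these letters and not a measured binding site. The region upstream of Cyr61 (chr3:145649986-145650235, minus strand, no overlap with an exon of GENCODE M21) follows, 5′ to 3′ in the sense of the gene, with the core in capitals 103 bases before the start:
Cyr61: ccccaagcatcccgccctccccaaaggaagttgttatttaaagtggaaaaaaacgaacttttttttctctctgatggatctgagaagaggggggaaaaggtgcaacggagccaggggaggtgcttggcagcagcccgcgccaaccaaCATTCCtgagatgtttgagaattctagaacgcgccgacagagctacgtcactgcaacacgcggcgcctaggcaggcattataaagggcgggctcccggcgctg
The sites of Amotl2 (chr9:102717727-102717756, plus strand, 65 bases before the start) and of Ankrd1 (chr19:36120037-36120066 and chr19:36119950-36119979, minus strand, 210 and 123 bases before the start) are shown to set a gene that rose beside one that was hardly read. These sites lie within an exon of GENCODE M21:
Amotl2: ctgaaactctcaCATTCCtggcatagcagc
Ankrd1 site 1: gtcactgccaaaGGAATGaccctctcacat
Ankrd1 site 2: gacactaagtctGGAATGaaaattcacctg
Ajuba has a pair of matches, 186 and 164 bases before the start (chr14:54577830-54577859 and chr14:54577808-54577837, minus strand), outside any exon of that annotation:
Ajuba site 1: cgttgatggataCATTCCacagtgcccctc
Ajuba site 2: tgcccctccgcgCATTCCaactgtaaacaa
Yap1, Wwtr1 and Axl each held the core in their windows, and no core was found in the windows of Tead2 or Lats2.

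Of the 768 cells, 711 were retained (182, 228 and 301 on Days 1, 3 and 7) with a median of 798924 reads on genes, and the retained cells of each culture were summed to between 26391412 and 72483565 reads. Levels are given as CPM, the summed reads of a culture as a part of its total with TMM scaling. In summed counts, fewer cells that express a gene and less RNA per expressing cell cannot be told apart. At least 2 of 5 epithelial markers (Epcam, Cdh1, Sox2, Krt8, Krt18) were read in 98.2% to 100% of retained cells of each day, and the summed level of the 5 was 2930 to 4990 CPM on Day 1, 3000 to 4940 CPM on Day 3 and 1580 to 2460 CPM on Day 7, so that every Day 7 culture was below every earlier culture. Glial markers summed to 40.4 to 53.9, 31.2 to 48.9 and 59.7 to 72.2 CPM on Days 1, 3 and 7, hair cell markers to 0 to 20.5, 10.4 to 89.5 and 0 to 4.11 CPM, and neuronal markers to 11.2 to 30.7, 7.86 to 16.9 and 3.75 to 11.3 CPM. Markers of endothelium summed to at most 0.466 CPM and of immune cells to at most 3.69 CPM. The part of these cell types, and of the lower epithelial sum, in the Day 7 results was not tested. The deposited tables come in 2 files. The first holds Day 1 culture 1, Day 3 culture 1 and Day 7 cultures 1 to 4, and the second holds the other 5 cultures. Day 7 culture 3 was the lowest of its day for Cyr61 and Amotl2, so results for these genes are also given without it. Both rises over Day 1 were then larger, at 3.27 against 3.13 and 2.15 against 2.00 on the log2 scale.

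Transcript levels of YAP and TAZ overlapped between all days, while 2 of their known targets rose. By Day 7 Cyr61, a secreted matrix-associated protein, had risen by 3.13 ± 0.45 (SE, log2) over Day 1, and Amotl2, an angiomotin family protein that binds YAP and is itself a YAP target, by 2.00 ± 0.45, in a comparison that called 7.11% of all genes tested. The other 8 members did not pass the test between any pair of days. The Amotl2 call did not hold when any Day 1 culture was left out. Of 17 further known targets, 0 were called higher from Day 1 to Day 7 and 3 lower, against 3.55% and 3.56% of all genes. Of the 10, Tead1 alone had lower CPM in every Day 7 culture than in every Day 1 culture, and its adjusted p of 0.0698 missed the threshold of 0.05.

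**Figure D1:**
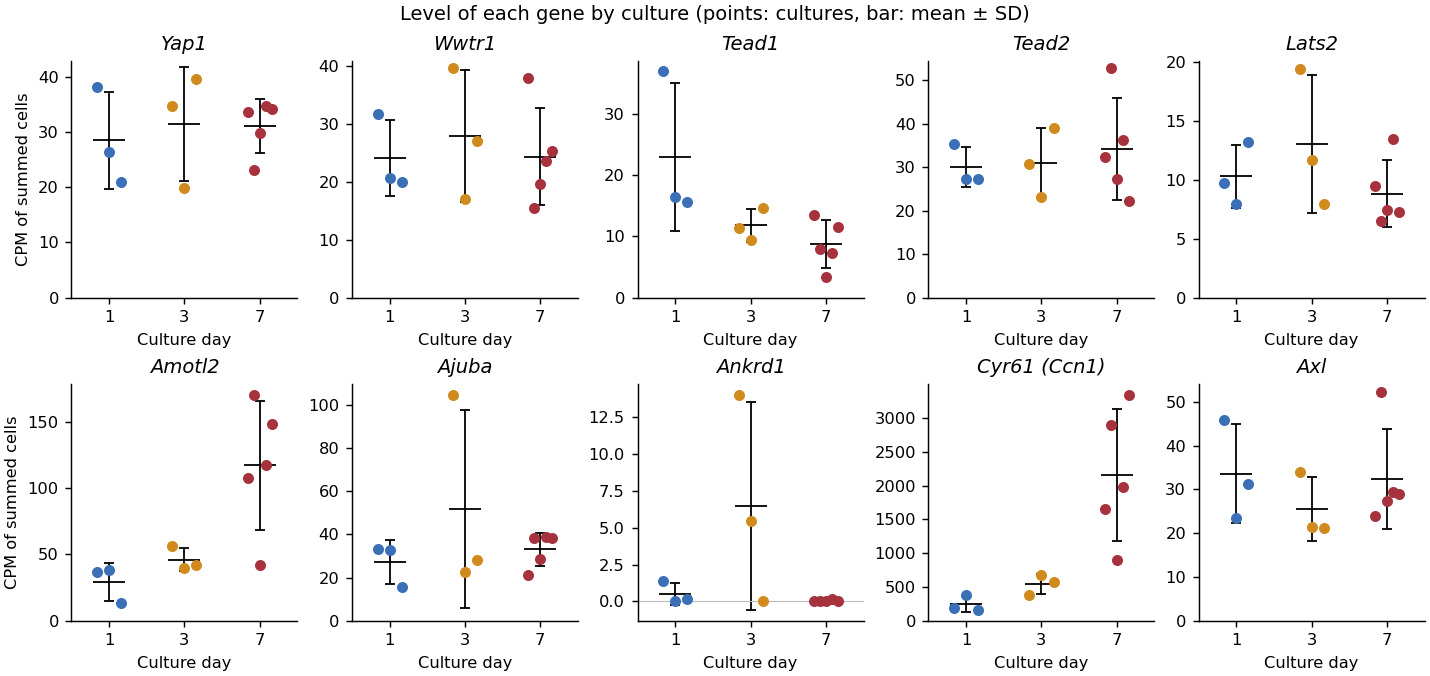
CPM of each gene (vertical axes, each on its own scale) in the 3 Day 1, 3 Day 3 and 5 Day 7 cultures (points), with the mean and SD of each day as a bar. Cyr61 rose from 162–386 CPM on Day 1 to 903–3339 CPM on Day 7, and Amotl2 overlapped between Day 3 and Day 7 only through Day 7 culture 3.

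Yap1 and Wwtr1 encode the co-activators, which bind no DNA themselves. Yap1 (ENSMUSG00000053110.13, chr9:7931999-8004596, minus strand, GRCm38) had 38.2, 26.4 and 20.9 CPM in Day 1 cultures 1 to 3, 34.8, 19.9 and 39.7 CPM in Day 3 cultures 1 to 3, and 33.6, 23.1, 29.9, 34.8 and 34.2 CPM in Day 7 cultures 1 to 5. The 3 days overlapped, and the log2 change of Yap1 from Day 1 to Day 7 was 0.13 ± 0.28 (SE, adjusted p = 0.838). Wwtr1 (ENSMUSG00000027803.14, chr3:57455649-57575910, minus strand) had 31.6, 20.6 and 20.0 CPM on Day 1, 39.6, 17.0 and 27.0 CPM on Day 3, and 37.9, 15.5, 19.6, 23.5 and 25.3 CPM on Day 7. It too overlapped between all days, with a log2 change of 0.02 ± 0.34 from Day 1 to Day 7 (adjusted p = 0.985).

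The TEAD factors are the DNA-binding partners. Tead1 (ENSMUSG00000055320.17, chr7:112679318-112906807, plus strand) had 36.9, 16.5 and 15.6 CPM on Day 1, 11.4, 9.4 and 14.6 CPM on Day 3, and 13.5, 8.0, 3.4, 7.2 and 11.5 CPM on Day 7. Every Day 3 and every Day 7 culture was below the lowest Day 1 culture, and Day 1 culture 1 was above every other culture. The log2 change of Tead1 was -1.40 ± 0.43 from Day 1 to Day 7 (adjusted p = 0.0698) and -0.96 ± 0.50 from Day 1 to Day 3 (adjusted p = 0.606). Within the first file it was -2.26 from Day 1 to Day 7 and within the second -0.48 (adjusted p = 0.222 and 0.699). With DESeq2 and limma in place of edgeR the Day 7 difference of Tead1 passed (adjusted p = 0.0142 and 0.0318). Tead2 (ENSMUSG00000030796.17, chr7:45215753-45233644, plus strand) had 35.3, 27.4 and 27.4 CPM on Day 1, 30.7, 23.1 and 39.1 CPM on Day 3, and 32.5, 52.9, 27.4, 36.2 and 22.2 CPM on Day 7. Its days overlapped, with a log2 change of 0.19 ± 0.29 from Day 1 to Day 7 (adjusted p = 0.752). The other family members were low: Tead4 ranged from 0.0929 to 3.72 CPM over the 11 cultures, and its log2 change from Day 1 to Day 7 was -0.04 ± 1.10 (adjusted p = 0.988).

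Lats2, Amotl2 and Ajuba act on YAP: the kinase LATS2 phosphorylates it, AMOTL2 holds it in the cytoplasm, and the LIM protein AJUBA inhibits LATS kinases. Lats2 (ENSMUSG00000021959.16, chr14:57689662-57758388, minus strand) had 9.8, 7.9 and 13.3 CPM on Day 1, 19.4, 11.7 and 8.0 CPM on Day 3, and 9.5, 6.5, 7.5, 13.5 and 7.3 CPM on Day 7. The days overlapped, with a log2 change of -0.22 ± 0.38 from Day 1 to Day 7 (adjusted p = 0.781). The Lats2 value is uncertain, since a second entry with the same symbol (ENSMUSG00000114942.1) overlaps it on the same strand. With the reads of both entries summed, an alternative chosen after seeing the data, the log2 change was -0.21 (adjusted p = 0.767).

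Amotl2 (ENSMUSG00000032531.15, chr9:102716672-102733418, plus strand) had 36.6, 38.3 and 13.0 CPM on Day 1, 55.98, 39.6 and 42.3 CPM on Day 3, and 107.8, 170.4, 42.3, 117.3 and 147.9 CPM on Day 7. All Day 3 and all Day 7 cultures were above all Day 1 cultures, and Day 7 culture 3 was at the level of Day 3 while the other 4 were at least 107.8 CPM. Amotl2 rose by 2.00 ± 0.45 on the log2 scale from Day 1 to Day 7 (adjusted p = 0.0211), and the change from Day 3 to Day 7 was 1.35 ± 0.43 (adjusted p = 0.205). Without Day 7 culture 3 these values were 2.15 (adjusted p = 0.00781) and 1.56 (adjusted p = 0.0661). The call for Day 7 against Day 1 did not hold without Day 1 culture 1, 2 or 3 (adjusted p = 0.0681, 0.0506 and 0.065 in turn). It was also lost within the first file (log2 change 1.52, adjusted p = 0.352) and within the second (2.52, adjusted p = 0.0901), where each fit has few cultures.

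Ajuba (ENSMUSG00000022178.10) had 33.4, 32.5 and 15.5 CPM on Day 1, 104.6, 22.5 and 28.0 CPM on Day 3, and 21.4, 38.3, 28.4, 38.5 and 38.5 CPM on Day 7. The days overlapped, and Day 3 culture 1 alone was high. Its log2 change from Day 1 to Day 3 was 0.93 ± 0.52 (adjusted p = 0.643) and became -0.14 without Day 3 culture 1 (adjusted p = 0.974). The high level of that culture was spread over its cells: after each cell was thinned to 200000 reads, the median cell held 16.5 Ajuba reads, against 0 in each of the other 10 cultures.

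Cyr61 is the member with the highest level. Cyr61 (ENSMUSG00000028195.4, chr3:145646976-145649981, minus strand) had 188, 386 and 162 CPM on Day 1, 380, 671 and 567 CPM on Day 3, and 1650, 2902, 903, 1977 and 3339 CPM on Day 7. Every Day 7 culture was above every culture of Days 1 and 3, while Day 3 culture 1 fell just below Day 1 culture 2. Cyr61 rose by 3.13 ± 0.45 on the log2 scale from Day 1 to Day 7 (adjusted p = 0.00283) and by 2.00 ± 0.43 from Day 3 to Day 7 (adjusted p = 0.0486). From Day 1 to Day 3 the change was 1.14 ± 0.44 (unadjusted p = 0.0241, adjusted p = 0.474). The call for Day 7 against Day 1 held without any culture in turn, and without Day 7 culture 3 the log2 change was 3.27 (adjusted p = 0.0019). Within the first file, which has a single Day 1 culture, it was 3.25 (adjusted p = 0.143), and within the second 3.61 (adjusted p = 0.0271). The call for Day 7 against Day 3 sat at the threshold and was lost when any culture but Day 1 culture 2 or Day 7 culture 3 was left out (adjusted p up to 0.177), within the first file (log2 change 2.28, adjusted p = 0.661) and within the second (2.45, adjusted p = 0.0907).

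Other values also differed between days or between cultures. The immediate early gene Fos, which cell dissociation and growth factor signals induce, had 28.4 to 127 CPM on Day 1, 50.4 to 233 CPM on Day 3 and 363 to 751 CPM on Day 7, and Egr1 had 141 to 248 CPM on Day 1 and 387 to 988 CPM on Day 7. The share of cycling cells also differed between days. In non-cycling cells alone the log2 change of Cyr61 from Day 1 to Day 7 was 3.34 (adjusted p = 0.00597) and that of Amotl2 2.07 (adjusted p = 0.178). Of 8 mesenchyme markers, the summed level was 1430 to 1520 CPM on Day 1, 1020 to 1460 CPM on Day 3 and 588 to 2850 CPM on Day 7, made up almost wholly of Dcn and Lum. On Day 7 Lum had 1336, 1562, 377, 435 and 1793 CPM in cultures 1 to 5, against 879, 1017 and 860 CPM on Day 1. Day 7 cultures 5 and 2 led for Lum as for Cyr61 and culture 3 was lowest for both. Culture 4 had less Lum but more Cyr61 than culture 1, and Dcn was lowest in culture 4. Lum in Day 7 cultures 3 and 4 was below every Day 1 culture, unlike Cyr61. Among the other 6, Col1a1 was at most 2.12 CPM in every culture, and Col1a2 was highest in Day 1 culture 1, at 17.98 CPM. Day 3 culture 3 alone held Col3a1 reads (11.3 CPM), and it had the highest Tbx18 (12.8 CPM), Pou3f4 (8.52 CPM) and Pdgfra (6.33 CPM). At least 2 of the 8 mesenchyme markers were read in 86% to 95.1% of retained cells of each day. The part of Fos, Egr1 and Lum in the rise of Cyr61 was not tested.

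Ankrd1 (ENSMUSG00000024803.8), a nuclear and sarcomeric protein and a frequently used YAP target, was nearly unread. Its levels were 1.37, 0 and 0.189 CPM on Day 1, 14.0, 5.43 and 0 CPM on Day 3, and 0 CPM in Day 7 cultures 1, 2, 3 and 5 with 0.177 CPM in Day 7 culture 4. Only 10 of the 711 retained cells held an Ankrd1 read. On Day 3 culture 1 had 893 reads in 5 cells, of which 764 came from a single cell, and culture 2 had 278 reads in 1 cell. In the 6 cultures with no read, a count of 0 allows up to 0.0942 CPM and, by culture, a share of cells with a read of up to 3.49% to 8.11%, which covers counting error only and does not limit how many cells express the gene. No change of Ankrd1 passed the test, and its fitted fold changes rest on these few cells.

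Axl (ENSMUSG00000002602.16, chr7:25757273-25788705, minus strand), a receptor tyrosine kinase for Gas6, had 45.9, 23.5 and 31.3 CPM on Day 1, 33.9, 21.3 and 21.1 CPM on Day 3, and 23.9, 52.3, 27.2, 29.3 and 28.9 CPM on Day 7. The days overlapped, and Day 1 culture 1 and Day 7 culture 2 were high. The log2 change of Axl was -0.05 ± 0.31 from Day 1 to Day 7 (adjusted p = 0.944).

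**Figure D2:**
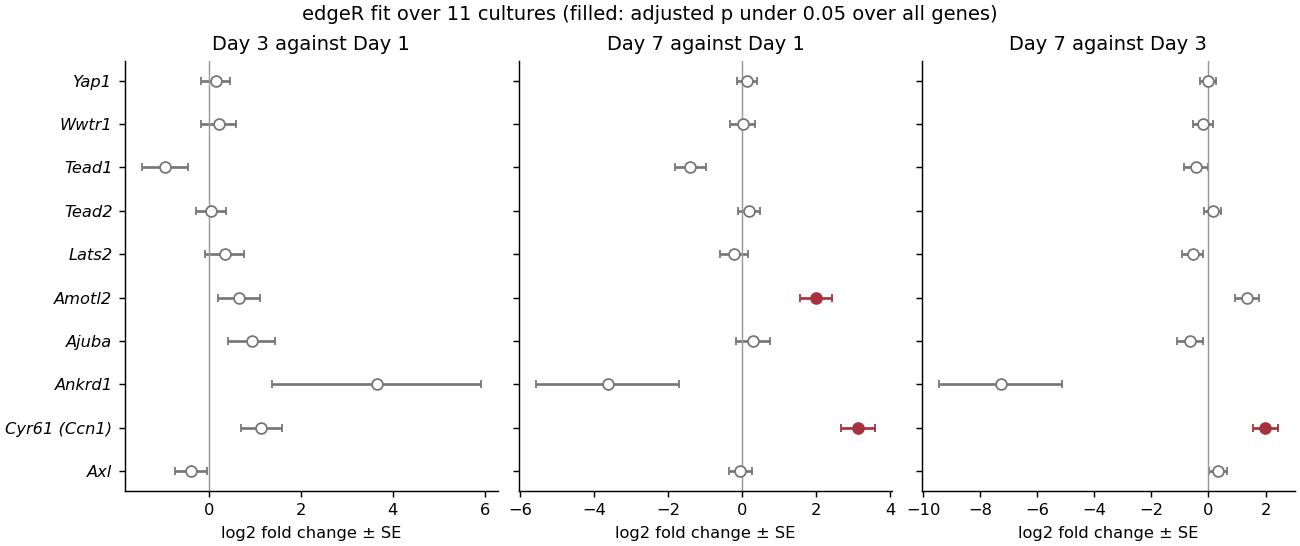
Fitted log2 fold change (horizontal axis) of each of the 10 genes with its SE for the 3 pairs of days, from 1 edgeR fit over 11 cultures. Filled points passed an adjusted p of 0.05 over all genes tested: Cyr61 and Amotl2 from Day 1 to Day 7, and Cyr61 from Day 3 to Day 7.

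For Day 3 against Day 1, 0 of 10 members were called by edgeR's quasi-likelihood test, against 0.0115% of 17466 genes tested (0.0115% higher and 0% lower), and 1 was past an unadjusted p of 0.05, against 9.26%. DESeq2 and limma also called 0 there. In that comparison 1 member, Amotl2, was higher in every culture (9.88% of genes were) and 1, Tead1, was lower in every culture (8.11%). Between Days 1 and 7, 2 of 10 were called higher, against 3.55% of genes, and 0 lower, against 3.56% (7.11% in either direction). At an unadjusted p of 0.05 there were 2 higher and 1 lower, Tead1, against 23.6% of genes in either direction. Cyr61 and Amotl2 were higher without overlap (8.71% of genes were) and Tead1 lower (9.06%). Between Days 3 and 7, 1 of 10 was called, Cyr61, as higher, against 0.183% of genes higher, 0.784% lower and 0.968% in all. At an unadjusted p of 0.05 Cyr61 and Amotl2 were higher and Ankrd1 lower, against 11.8% of genes, and Cyr61 alone did not overlap (2.99% of genes were higher without overlap and 5.14% lower). These comparisons share cultures, and the 10 members' median log2 changes were 0.27, 0.07 and -0.11 in turn, against 0.02, 0.00 and 0.01 over all genes.

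Per kilobase of exon, where levels of different genes can be compared, Cyr61 was far above the other members on each day. Its mean was 122 ± 60.6 CPM per kb on Day 1 (SD, n = 3), 267 ± 73.0 on Day 3 (n = 3) and 1067 ± 484 on Day 7 (n = 5). On Day 1 the order below Cyr61 was Ajuba (7.45 ± 2.76 CPM per kb), Axl (6.67 ± 2.26), Tead2, Wwtr1, Amotl2 (4.66 ± 2.25) and Yap1 (3.08 ± 0.951), and neighbours in this order differed by less than the larger SD. Tead1 and Lats2 followed, at 1.69 ± 0.890 and 1.48 ± 0.387 CPM per kb, also within their spread. On Day 3 Ajuba (14.2 ± 12.6 CPM per kb), Amotl2 (7.31 ± 1.39) and Tead2 (6.46 ± 1.67) came next to Cyr61, and Tead1 was at 0.869 ± 0.194. On Day 7 Amotl2 had moved to the second place at 18.6 ± 7.73 CPM per kb. Ajuba (9.06 ± 2.14), Tead2 (7.15 ± 2.44), Axl (6.43 ± 2.26), Wwtr1 (5.09 ± 1.77) and Yap1 (3.36 ± 0.527) kept to neighbouring levels within their spread, and Tead1 was below Lats2, at 0.642 ± 0.289 against 1.27 ± 0.406. Tead2 RNA per kilobase thus exceeded that of Tead1 on each day, and the mean of Wwtr1 that of Yap1. Wwtr1 had 5.04 ± 1.36 CPM per kb on Day 1 and 5.83 ± 2.38 on Day 3, against 3.08 ± 0.951 and 3.40 ± 1.11 for Yap1. That difference was larger than either SD on Days 1 and 3, and not larger than the SD of Wwtr1 on Day 7.

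The wider pathway was read from lists of 23 further regulators and 17 further targets. Of the regulators, which hold the core kinases, their scaffolds and the remaining TEAD genes, 0 were called from Day 1 to Day 3 and 0 from Day 3 to Day 7 by edgeR, with 0 and 2 past an unadjusted p of 0.05 and 0 and 1 called by DESeq2. Between Days 1 and 7, 0 of 23 rose and 2 fell, against 3.56% of all genes lower and 7.11% in either direction, and 2 higher and 3 lower were past an unadjusted p of 0.05. The 2 were Fat4, a giant cadherin, and Wwc1 (KIBRA), a scaffold that promotes LATS activity. Fat4 had 13.0, 7.68 and 8.03 CPM on Day 1 and 0.527, 1.52, 0.506, 0.177 and 2.75 CPM on Day 7, without overlap, and changed by -3.12 ± 0.82 (adjusted p = 0.0389). Wwc1 had 76.0, 46.3 and 61.7 CPM on Day 1 and 28.0, 29.4, 26.7, 21.6 and 47.0 CPM on Day 7, where the last culture overlaps Day 1, and changed by -1.005 ± 0.27 (adjusted p = 0.0437). In 12 of 20 alternatives no regulator was called. The list's median log2 change from Day 1 to Day 7 was -0.13.

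Of the 17 further targets, 3 fell from Day 1 to Day 7 by edgeR's test and 0 rose, against 3.56% of all genes lower and 3.55% higher, where DESeq2 called 4 lower and 2 higher. The median log2 change was -0.27, and 0 were called in either of the other comparisons. At an unadjusted p of 0.05 edgeR gave 2 higher (F3, the receptor that starts blood clotting, and Ctgf) and 5 lower from Day 1 to Day 7, 1 higher and 1 lower from Day 1 to Day 3, and 1 higher and 5 lower from Day 3 to Day 7. DESeq2 called 1 higher from Day 1 to Day 3 and 3 lower from Day 3 to Day 7. The 3 that fell from Day 1 to Day 7 were Igfbp3, an IGF-binding protein that changed by -1.45 ± 0.19 (adjusted p = 0.00174), Tgfb2, a TGFβ ligand, by -1.41 ± 0.24 (adjusted p = 0.00636), and Myof, a membrane repair protein, by -4.01 ± 1.01 (adjusted p = 0.0333). Igfbp3 had 562, 761 and 681 CPM on Day 1 and 160, 282, 252, 245 and 282 CPM on Day 7, and all 3 genes were lower in every Day 7 culture than in any Day 1 culture. Myof was low, with 17.1, 5.59 and 18.2 CPM on Day 1 and 0 to 1.66 CPM on Day 7. Ctgf, a CCN family relative of Cyr61, had 1033, 945 and 461 CPM on Day 1, 1428, 763 and 589 CPM on Day 3, and 2294, 3503, 455, 2074 and 3189 CPM on Day 7. In 4 of 5 Day 7 cultures Ctgf was above every earlier culture, and in Day 7 culture 3 it was the lowest of all 11. Its log2 change from Day 1 to Day 7 was 1.503 ± 0.54 (adjusted p = 0.110).

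The single cells show how widely a change was spread. Each retained cell with enough depth (695 cells) was thinned to 200000 reads. The median cell of Day 1 cultures 1 to 3 held 17, 42 and 12.5 Cyr61 reads, that of Day 3 cultures 50.5, 63.5 and 69.5, and that of Day 7 cultures 317, 529, 106, 319.5 and 586. Every Day 7 median was above every earlier one. For Amotl2 the median cell held 0 reads in each Day 1 culture, 5.5, 1.5 and 1 on Day 3, and 17, 19, 1, 17 and 22 on Day 7. Reads of Cyr61 were spread over cells, and the top 5% of cells held 15.4% to 24.6% of its reads in Day 7 cultures and 25.7% to 39.0% in Day 1 cultures.

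**Figure D3:**
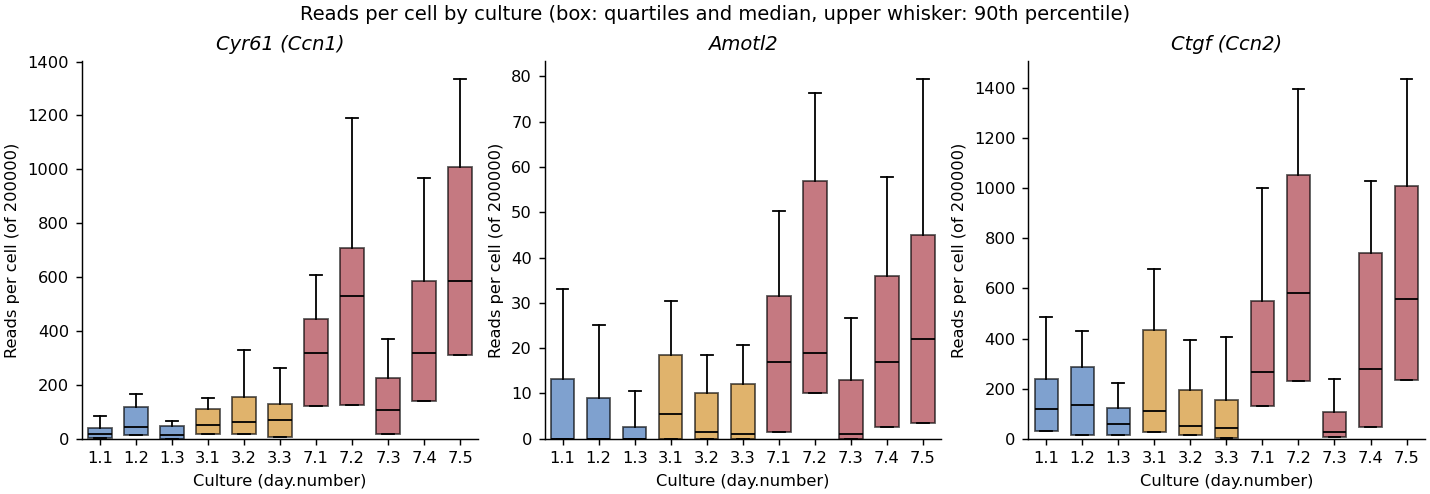
Reads per cell (vertical axis, cells thinned to 200000 reads) in each culture for Cyr61, Amotl2 and the related Ctgf. Boxes give quartiles and median and the upper whisker the 90th percentile. The Cyr61 median lies at 12.5 to 42 on Day 1 and at 106 to 586 on Day 7, with Day 7 culture 3 lowest of its day for all 3 genes.

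The share of thinned cells with at least 1 read moved the same way. For Amotl2 it was 42.3%, 38.8% and 31.6% on Day 1, 57.1%, 51.5% and 56.9% on Day 3, and 82.1%, 81.1%, 52.2%, 78.2% and 77.3% on Day 7, so that no Day 7 culture fell to the Day 1 range. For Cyr61 the mean share was 80.7% ± 10.6 on Day 1 (SD, n = 3), 87.6% ± 6.34 on Day 3 (n = 3) and 96.7% ± 4.35 on Day 7 (n = 5). For Tead1 it was 65.4%, 38.8% and 36.8% on Day 1 and 35.9%, 13.5%, 21.7%, 23.1% and 24.0% on Day 7. For these 3 genes the shares of Days 1 and 7 did not overlap, as for 3.95% of all genes tested with a higher share and 10.1% with a lower one, which gives the smallest two-sided p that the exact permutation test over 56 assignments can give, 0.0179, and an adjusted p of 0.0595 over the 10 members. None passed 0.05 after adjustment. By themselves these 3 genes could not pass, since each already had the smallest p that the number of cultures allows. Yap1 was read in 58.4% ± 12.5 of Day 1 cells and 52.8% ± 11.8 of Day 7 cells (exact permutation p = 0.518, adjusted 0.647), and Ankrd1 in 1.52% ± 1.36 and 0.256% ± 0.573.

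Cycling cells, defined by a read in at least 3 of the 6 mitotic genes Mki67, Top2a, Cdk1, Birc5, Ccnb2 and Tpx2, made up 345 of the 695 cells. Their share was 16.5% to 23.7% in Day 1 cultures, 54.2% to 67.9% on Day 3 and 25.3% to 87.0% on Day 7, and 63 and 49 cells had a read in exactly 2 and exactly 3 of the genes. In Day 7 cultures 1 to 5 the share was 56.4%, 40.5%, 87.0%, 73.1% and 25.3%. The part of this share in the differences between Day 7 cultures was not tested. Each culture was split into its cycling and non-cycling cells, and 9 members could be tested (Ankrd1 was too low). For Axl the lowest, median and highest culture had 19.0, 31.9 and 69.5 CPM in non-cycling cells and 13.1, 23.2 and 39.3 CPM in cycling cells. Axl was lower in the cycling cells of 10 of 11 cultures and fell by 0.63 ± 0.19 on the log2 scale (adjusted p = 0.0346), a call lost in 13 of 16 alternatives, 9 of which left out a culture (adjusted p 0.0117 to 0.447 over all). With the class set at a read in at least 2 genes the change was -0.31 (adjusted p = 0.447). Axl was the 1 member called, lower, against 6.47% of 13206 genes lower, 7.51% higher and 14% in all. At an unadjusted p of 0.05 there were 3, Axl and Cyr61 lower and Tead2 higher, against 26.2% of genes.

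Tead2 was higher in cycling cells and did not pass edgeR's test. Its lowest, median and highest culture had 15.7, 25.98 and 46.1 CPM in non-cycling and 23.1, 34.5 and 58.7 CPM in cycling cells, higher in 10 of 11 cultures, with a log2 change of 0.41 ± 0.14 (adjusted p = 0.0611). It passed with DESeq2 (0.42, adjusted p = 0.0194) and without Day 7 culture 4 (0.48, adjusted p = 0.0382). Cyr61 had 153, 690.3 and 3730 CPM in non-cycling and 183, 666 and 2458 CPM in cycling cells, was lower in 9 of 11 cultures, and changed by -0.27 ± 0.12 (adjusted p = 0.155). Among the further targets, 15 could be tested. At an unadjusted p of 0.05 in edgeR's test, 6 were lower and 0 higher in cycling cells, against 26.2% of genes in either direction. After adjustment 4 were called lower, against 6.47% of 13206 genes, and 0 higher, against 7.51%. Unlike the call for Axl, these calls of targets were not checked under the alternatives. The 4 were Ctgf (-0.79 ± 0.22, adjusted p = 0.0251, lower in 9 of 11 cultures), Myof (-2.63 ± 0.83, adjusted p = 0.05 when rounded, lower in 9 of 11), Igfbp3 (-1.07 ± 0.15, adjusted p = 0.00023) and Tgfb2 (-1.05 ± 0.15, adjusted p = 0.000199), the last pair lower in 11 of 11 cultures. Myof was low, at 0 to 2.43 CPM in both classes on Day 7. In Day 1 culture 1 it was higher in cycling cells (26.3 against 15.8 CPM).

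**Figure D4:**
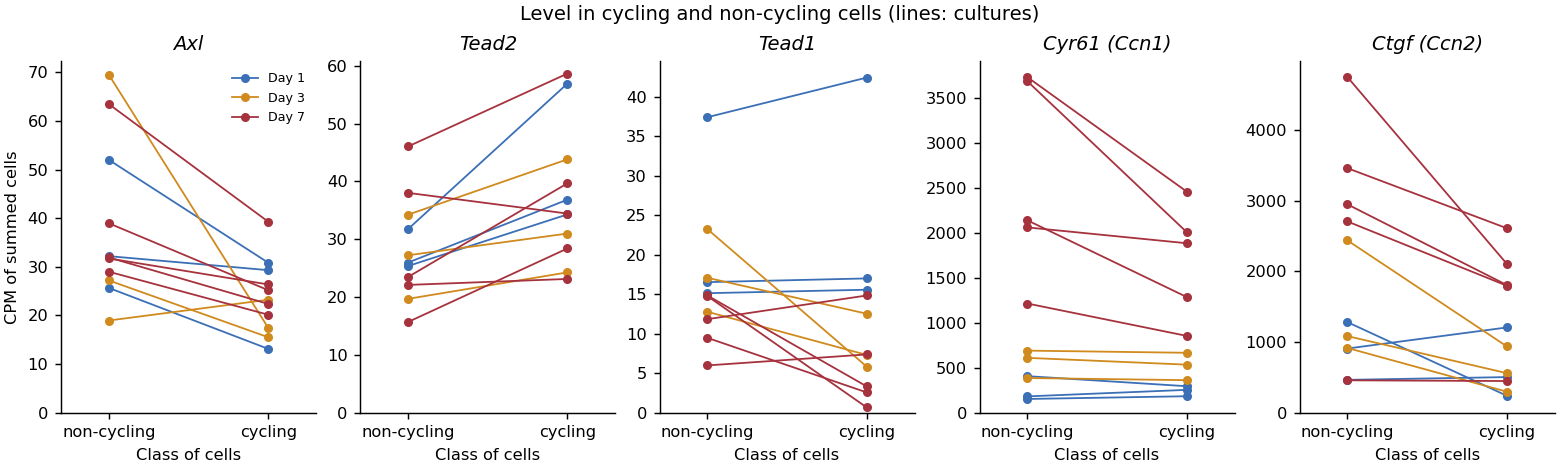
CPM of summed non-cycling and cycling cells (horizontal axis) of each culture, joined by a line and coloured by day, for 4 members and Ctgf, each on its own linear scale. Axl is lower in cycling cells of 10 of 11 cultures and Tead2 higher in 10 of 11, while Tead1 has no common direction.

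Within cultures, cells rich in Cyr61 were also rich in Ctgf. The Spearman correlation across cells, averaged over the 11 cultures, was 0.539 between Cyr61 and Ctgf and ranged from 0.384 to 0.784, so it was positive in every culture. No other of the 9663 genes read in at least 20% of cells came as close to Cyr61. The next were Dpysl2 (0.393), Atf3 (0.368), Amotl2 (0.363) and Sparcl1 (0.345), against a median of 0.037 over all those genes. Amotl2 was most like Cyr61 (0.363, range 0.054 to 0.801) and Ctgf (0.326), and Ajuba was most like Ctgf (0.289), Calu (0.283) and Actn4 (0.279). Cells of a culture share their library method and depth, and these values are descriptions without a test.

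Across cells, the correlations of Cyr61 with Yap1 and the TEAD genes were weak, in low counts. The mean correlation of Cyr61 was -0.003 with Yap1 (6 of 11 cultures above 0), 0.096 with Wwtr1, 0.029 with Tead1 and 0.043 with Tead2. Yap1 and Wwtr1 had a mean correlation of 0.033 with each other. By culture, the median thinned cell held 0 to 5 Yap1 reads, and 0 Tead1 reads in every culture but Day 1 culture 1. Weak correlations in such counts cannot show that the genes are unrelated. With the immediate early genes Cyr61 had 0.289 (Fos) and 0.297 (Egr1), while Amotl2 had 0.057 and 0.063. The genes most like Yap1, Wwtr1, Tead1, Tead2, Lats2 and Axl reached 0.184 to 0.242, and no finding is drawn from these values. Counts of these genes were low, though the median thinned cell held 1 to 6 Tead2 reads by culture. Ajuba was sparse too, with a median of 0 reads in every culture but Day 3 culture 1, so its values above are no firmer.

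**Figure D5:**
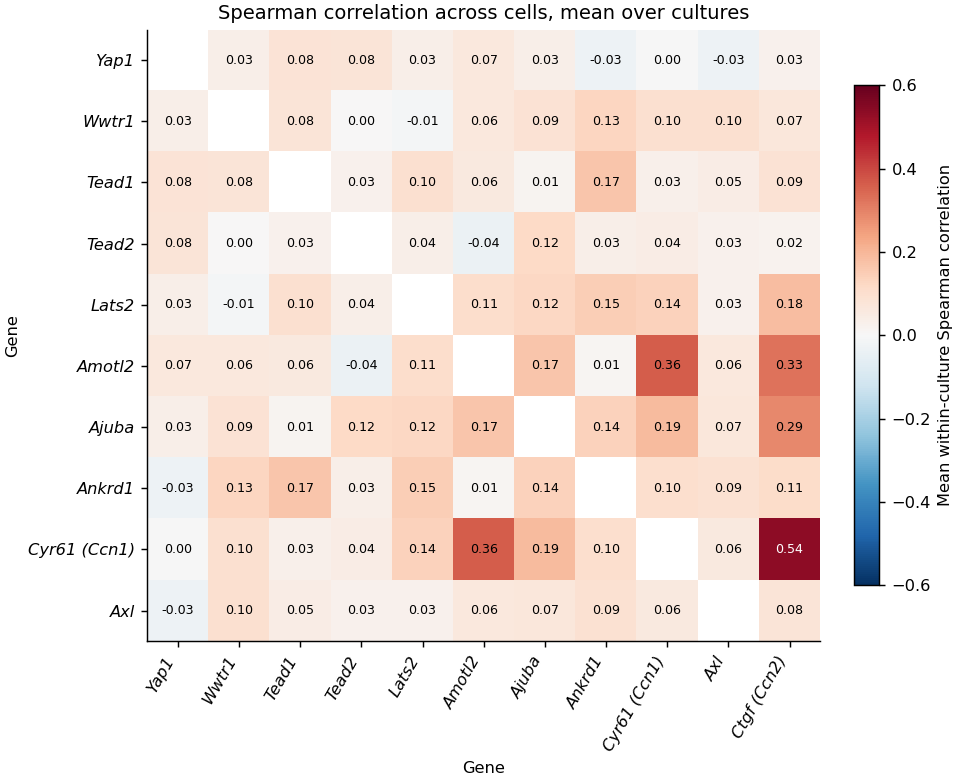
Mean over cultures of the within-culture Spearman correlation across cells for each pair of the 10 genes and Ctgf (colour and printed value, both axes are genes), with pairs of Ankrd1 over the 5 cultures where it was read. Cyr61, Amotl2 and Ctgf form the block of highest values, 0.326 to 0.539, while Yap1, Wwtr1, Tead1 and Tead2 lie between -0.04 and 0.17 with every other gene.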

How the data were processed

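RNA was measured in 768 hand-picked cells. The deposited values are expected counts, estimates of reads that need not be whole (10.6% of the positive values were not), and by their values they are not normalised. STAR 2.5.3a, RSEM 1.3.0 and the build mm10 (GRCm38) are named in the submitters' processing notes, which give no roles. The 92 spike-in and 4 transgene rows were left out. After rounding, 57 cells were removed for fewer than 50000 gene reads, fewer than 1500 genes or more than 20% mitochondrial reads. No doublet caller was run. Retained cells were summed per culture, and the 11 sums were fitted in R 4.3.3 with edgeR 4.0.16: TMM, filterByExpr, quasi-likelihood F-test and Benjamini-Hochberg adjustment over 17466 genes, with a threshold of 0.05. The script was tested on simulated data. Cycling and non-cycling sums were fitted with the culture as a block. Shares of cells were compared by exact two-sided permutation over cultures in cells thinned to 200000 reads, and 3 against 3 cultures cannot pass 0.05. Coordinates are from GENCODE M21 for genes with the same version. The 10 members and both lists were chosen with earlier results of these data known. All members are named. From the lists, Ctgf and Tead4 and up to 4 called genes per direction with the smallest adjusted p are named, and for likeness up to 5 genes with the highest mean correlation. Fos, Egr1 and Lum were named after their values were seen. Alternatives were DESeq2 1.42.0, limma 3.58.1 on mean CPM (log2 with a pseudocount of 1), no low-count filter, all cells, thinned counts, single files, a file term, non-cycling cells, a replicate block and each culture left out. Without molecular identifiers, limits from counts cover counting error only.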

Additional observations from a re-analysis of the deposited data

Results flagged for a closer look

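In 4 of 20 groups of 5 Day 7 cultures, 1 culture lay far from the other 4, where chance flags about 1 in 20 groups. Axl had 52.3 CPM in Day 7 culture 2 against 23.9 to 29.3 CPM in the other 4. Amotl2 was read in 52.2% of cells of Day 7 culture 3 against 77.3% to 82.1% elsewhere. Ankrd1 had 0.177 CPM and a read in 1.28% of thinned cells in Day 7 culture 4, and no read in the other 4, so both of its values rest on 12 reads in 2 cells, are not independent, and stand apart because every other culture is at 0.

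The Tead1 difference between cycling and non-cycling cells had opposite signs on Days 1 and 3, and that of Day 1 was small. The difference, cycling minus non-cycling, averaged 1.98 CPM on Day 1, above 0 in 3 of 3 cultures, and -9.15 CPM on Day 3, below 0 in 3 of 3 cultures. In Day 1 cultures 1 to 3, cycling cells had 42.45, 17.01 and 15.58 CPM and non-cycling cells 37.43, 16.54 and 15.14 CPM. The Day 1 mean thus rests mostly on culture 1, and the cycling classes held only 11, 14 and 9 cells. Whether the difference changed between days was not tested.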

How the results depend on the processing

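Each culture level rests on 37 to 86 hand-picked cells, and with 3 to 5 cultures a day small changes of Yap1, Wwtr1, Tead2, Lats2 and Axl are not detectable. The deposited files cannot be told apart from the cultures they hold. For Day 7 against Day 1, Cyr61 kept its direction in 20 of 20 alternatives (log2 change 2.87 to 3.63, adjusted p 5.06e-14 to 0.143) and Amotl2 in 20 of 20 (1.52 to 2.52, adjusted p 5.2e-05 to 0.352). Of the results for single members, 753 of 854 kept their direction and their side of the threshold. A further 32 were lost, 5 were gained and 64 changed sign, none of the last past the threshold. Most of the 854 were never called, so 753 is no measure of how firm the calls are. The 32 lost all belonged to calls. For Day 7 against Day 1 they were Cyr61 in 1 of 20 alternatives and Amotl2 in 6 of 20. The others were Cyr61 for Day 7 against Day 3 in 12 of 20 and Axl in cycling cells in 13 of 16. Tead1 passed in Day 7 against Day 1 with DESeq2 (-1.48, adjusted p = 0.0142) and with limma (-1.41, adjusted p = 0.0318). The cause of each difference was not tested, except that single files hold fewer cultures.

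Replicate numbers were not treated as pairs, since the labels do not say whether they link cultures of different days. Deviations of same-numbered cultures from their day's mean correlated at -0.0101 to 0.0614 over 9 pairs. Differently numbered cultures were not compared, so these values do not settle whether the cultures were paired. With the replicate block 2 members were called for Day 7 against Day 1 (Cyr61 2.87, adjusted p = 0.00313, and Amotl2 1.83, adjusted p = 0.024), 1 for Day 7 against Day 3 (Cyr61 1.63, adjusted p = 0.047) and 0 for Day 3 against Day 1, as without it, and 4 further targets in place of 3. Under the block Wwtr1 (-0.068) and Axl (0.059) changed sign for Day 7 against Day 1.

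Counts called changed as follows. Between Days 1 and 7, the first file alone gave 0 members, 0 regulators and 0 targets, the second file 1, 0 and 0, non-cycling cells 1, 0 and 0, the file term 0 regulators, and DESeq2 6 targets (2 higher and 4 lower). Leaving out a culture gave 1 to 2 members and 0 to 2 regulators. Between Days 3 and 7, each file and limma gave 0 members, DESeq2 2 members, 1 regulator and 3 targets, and leaving out a culture 0 to 1 members and 0 to 1 targets. For Day 3 against Day 1, DESeq2 and no filter each gave 1 target. In cycling cells DESeq2 gave 2 members, no filter, thinned counts and cycling sets at 2 or 4 genes gave 0, and leaving out a culture 0 to 1.

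Sign changes, as log2 values, were these. In the first file alone they were Yap1 -0.18 and Tead2 -0.25 (Day 3 against Day 1), Yap1 -0.37, Wwtr1 -0.43 and Ajuba -0.12 (Day 7 against Day 1) and Axl -0.041 (Day 7 against Day 3). In the second they were Lats2 -0.12 (Day 3 against Day 1), Tead2 -0.30 and Axl 0.083 (Day 7 against Day 1), and Yap1 0.22, Wwtr1 0.23, Tead2 -0.46 and Ajuba 0.63 (Day 7 against Day 3). In non-cycling cells they were Tead2 -0.060 and Axl 0.048 (Day 3 against Day 1), Lats2 0.51 and Axl 0.052 (Day 7 against Day 1), and Yap1 0.024 and Lats2 0.23 (Day 7 against Day 3). With the file term Wwtr1 gave -0.14 and Tead2 -0.002 (Day 7 against Day 1) and Tead2 -0.068 (Day 7 against Day 3). DESeq2 gave Tead2 -0.029 (Day 3 against Day 1) and Wwtr1 -0.061 (Day 7 against Day 1), where no filter gave -0.036 and all cells -0.007. Limma gave Yap1 0.15 (Day 7 against Day 3). In cycling cells, sets at 4 genes gave Amotl2 -0.24 and at 2 genes Ajuba 0.20. With at least 5 reads as the limit, shares differed by 3.42 (Yap1) and 1.69 (Ajuba) percentage points.

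With each culture left out in turn, the log2 change for Day 3 against Day 1 ran from -0.053 to 0.39 (Yap1), -0.17 to 0.47 (Wwtr1), -0.15 to 0.22 (Tead2), -0.093 to 0.60 (Lats2) and -0.14 to 1.29 (Ajuba). Between Days 1 and 7 it ran from -0.049 to 0.33 (Yap1), -0.20 to 0.20 (Wwtr1), -0.023 to 0.31 (Tead2), -0.48 to 0.005 (Lats2) and -0.29 to 0.17 (Axl). Between Days 3 and 7 it ran from -0.26 to 0.18 (Yap1), -0.45 to 0.13 (Wwtr1), -0.066 to 0.35 (Tead2) and -1.01 to 0.36 (Ajuba). In cycling cells it ran from -0.46 to 0.052 (Lats2) and -0.078 to 0.15 (Amotl2), and the Ajuba share difference from -7.48 to 1.44 percentage points.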
